A study of Mus musculus with 6 samples.

Results

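Adhesion G protein-coupled receptors (GPCRs) were examined through 9 of 10 chosen genes, Adgre1, Adgre4, Adgre5, Adgrg1, Adgrg3, Adgrg6, Adgrg7, Adgrl1 and Adgrl4, out of 55487 genes in the table and out of 30 genes of the family found there. The 10 genes were picked from their measured levels in the same libraries, so their differences between the groups are given as a description without a p-value. The libraries came from a mouse model of acute myeloid leukemia, in which donor marrow of CD45.2+ Mx1-Cre Brd9fl/fl C57BL/6 mice carried a retroviral MLL-AF9 (MA9) oncogene with green fluorescent protein (GFP). Each lethally irradiated CD45.1+ recipient received 1000 leukemia cells, as the labels give it with 2 fractions of 450 cGy, whereas the study's methods call the irradiation sublethal. From the next day, recipients were given 3 doses of either PBS or pIpC at 20 mg/kg, 1 dose every other day. Poly(I:C), or pIpC, imitates viral double-stranded RNA. The interferon it raises switches on the Mx1 promoter, and with it Cre, in blood cells and in other cells that respond to interferon. As described, both groups share the floxed Brd9 alleles, the Mx1-Cre transgene and the MLL-AF9 fusion, and the injection is the stated difference. The libraries also differed in Xist, as given below. GFP+ bone marrow cells of femora and tibiae were collected 10 days after injection, with 3 libraries labelled PBS and 3 labelled pIpC. No label states that the 3 libraries of a group are separate mice, so p-values measure the spread between these libraries.

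Adhesion GPCRs carry a long extracellular region joined to a membrane-spanning receptor domain through a segment that cuts itself, and many of them sense cell contact or matrix and pass the signal to G proteins. Several are familiar surface antigens of blood cells. Adgre1 encodes F4/80, a marker of mouse macrophages that eosinophils also carry, and Adgrg1 encodes GPR56, found on hematopoietic stem cells and natural killer (NK) cells.

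PBS libraries held 19277439 to 22378154 reads on genes and pIpC-labelled libraries 22348517 to 23586722, and the 10 most counted genes took at most 5.85% and 11.97% of them, respectively. PBS replicate 3 stood apart from the other PBS libraries, with a chi-square per gene of 193 and 218 against them, compared with 6.87 to 18.6 for the other pairs. Brd9, the floxed gene, was not lower in pIpC-labelled libraries: its normalized count was 1927, 1946 and 1632 in PBS and 2036, 2263 and 2011 in pIpC-labelled libraries (log2 fold change 0.20, adjusted p = 0.259). The whole-gene count includes exons outside the deleted part. Every direction below is therefore one between libraries as labelled. Xist, the RNA that coats the inactive X chromosome of female cells, was at 15.8 to 72.9 in PBS libraries and at 18429 to 26173 in pIpC-labelled ones. The groups thus differed in this RNA of female cells as well as in the stated injection, and these libraries cannot tell the parts of the injection and of that difference apart. The part of either in the differences below was not tested. In bulk libraries like these, fewer cells of a type and less RNA per cell cannot be told apart.

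Per exon kilobase, Adgre1, Adgrg3, Adgrl4 and Adgre5 were the most abundant in PBS libraries, and Adgrg3, Adgre5 and Adgrg1 in pIpC-labelled libraries. The ends of the range of differences among the 9 genes were Adgrg7, which had 2 reads over the PBS libraries and 2032 over the pIpC-labelled ones, and Adgre1, which was 13.9-fold lower in the latter. By the threshold applied to all genes (adjusted p under 0.1), 4 of the 9 were past it as higher (Adgre4, Adgre5, Adgrg6 and Adgrg7), against 25.0% of the 15020 genes tested, and 3 as lower (Adgre1, Adgrl1 and Adgrl4), against 20.4%. The 3 pIpC-labelled libraries lay above all PBS libraries for 5 of the 9 genes, against 30.5% of genes tested, and below them for 3, against 26.3%. As these values took part in choosing the genes, nothing is read from the counts. The median log2 fold change was 0.22 over the 9 genes and 0.02 over all genes tested. All 9 genes passed the filter on low values, but Adgrg6 and Adgrg7 passed it through the pIpC-labelled libraries alone. The higher direction of Adgrg6 and Adgrg7 was therefore set by the filter.

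**Figure D1:**
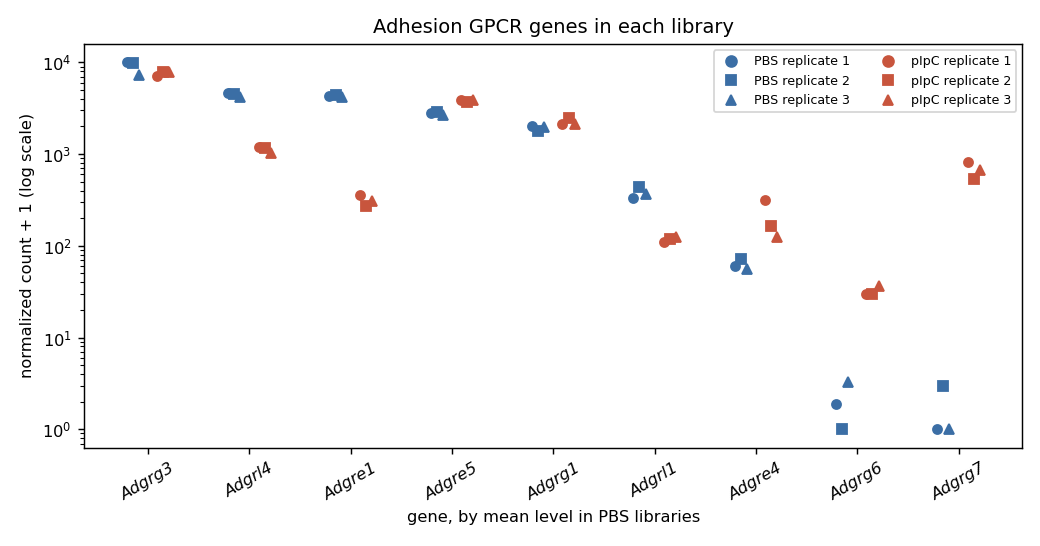
Normalized count plus 1 (log axis) of the 9 adhesion GPCR genes in each of the 3 PBS (blue) and 3 pIpC-labelled (red) libraries, with 1 marker shape for each replicate number. Adgre1, Adgrl1 and Adgrl4 sit lower in red, Adgrg6 and Adgrg7 rise from near 1, and Adgrg3 is the gene whose groups overlap.

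RefSeq promoter windows, running from 250 bases before to 50 bases after the annotated start, were found for 7 of the 9 genes (8 windows, GRCm38.p6) and not for Adgre1 and Adgre5. Shown here are the windows of the genes that were nearly silent in PBS libraries (Adgrg7 and Adgrg6) and of the lower genes that had a window (Adgrl4 and Adgrl1), read 5′ to 3′ on the strand of the gene. Capitals mark letters of 5 blood or core promoter motifs searched on both strands: GAGGAAG for PU.1, TGTGGT for RUNX, TTNNGNAA for C/EBP, AGATAA for GATA factors and TATAAA for the TATA box. The windows are chr16:56795809-56796108 (minus strand), chr10:14544987-14545286 (minus strand), chr3:151437632-151437931 (plus strand) and chr8:83899848-83900147 (plus strand), in the order printed.
Adgrg7: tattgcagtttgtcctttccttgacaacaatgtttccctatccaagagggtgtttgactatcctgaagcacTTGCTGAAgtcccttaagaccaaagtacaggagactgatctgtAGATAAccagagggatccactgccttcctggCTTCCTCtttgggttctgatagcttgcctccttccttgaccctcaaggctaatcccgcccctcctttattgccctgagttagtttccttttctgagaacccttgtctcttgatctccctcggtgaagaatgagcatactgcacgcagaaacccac
Adgrg6: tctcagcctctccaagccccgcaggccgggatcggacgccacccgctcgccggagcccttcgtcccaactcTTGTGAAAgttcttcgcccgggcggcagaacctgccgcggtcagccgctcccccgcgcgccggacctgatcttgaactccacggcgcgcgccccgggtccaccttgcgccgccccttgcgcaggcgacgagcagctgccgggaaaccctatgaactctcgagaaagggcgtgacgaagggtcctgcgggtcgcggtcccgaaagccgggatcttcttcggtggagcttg
Adgrl4: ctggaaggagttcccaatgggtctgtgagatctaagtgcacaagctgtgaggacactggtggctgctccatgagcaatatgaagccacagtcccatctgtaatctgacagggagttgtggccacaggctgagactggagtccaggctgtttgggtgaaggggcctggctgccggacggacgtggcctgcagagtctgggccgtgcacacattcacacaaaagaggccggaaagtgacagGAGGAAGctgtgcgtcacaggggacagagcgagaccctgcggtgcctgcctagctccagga
Adgrl1: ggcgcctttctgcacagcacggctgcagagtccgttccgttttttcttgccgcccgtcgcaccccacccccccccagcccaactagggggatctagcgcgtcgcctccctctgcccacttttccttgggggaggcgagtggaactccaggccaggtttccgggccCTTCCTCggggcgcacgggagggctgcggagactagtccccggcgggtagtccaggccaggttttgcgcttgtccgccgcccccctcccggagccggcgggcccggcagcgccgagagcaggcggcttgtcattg
The capitals in the Adgrg7 window are a C/EBP, a GATA and a PU.1 match, in that order and without overlap. Adgrg6 had a C/EBP match alone, and Adgrl4 and Adgrl1 each had a PU.1 match alone. Of 32851 promoter windows of 27025 genes, 40.7% held the C/EBP letters, 11.2% the GATA letters, 13.6% the PU.1 letters, 16.8% the RUNX letters and 13.6% the TATA letters. No TATA match was found in any of these 8 windows. The window with the most different matches was that of Adgre4, with 4 of the 5 motifs. CpG content separated the pairs: the windows held 3 CpG (Adgrg7) and 38 CpG (Adgrg6) among the nearly silent genes, and 8 CpG (Adgrl4) and 28 CpG (Adgrl1) among the lower ones, where the median of all windows was 7 and the middle range ran from 3 to 20. Genes that moved in the same direction thus had promoters of unlike CpG content, and a motif match is a description of the letters only.

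Of the E group, whose extracellular regions carry EGF repeats and whose genes are mainly expressed in leukocytes, 3 genes were followed. Adgre1 (ENSMUSG00000004730, chr17:57358691-57483527 of GRCm38, plus strand, 22 exons after merging transcripts) had normalized counts of 4337, 4427 and 4156 in PBS libraries and 356, 268 and 305 in pIpC-labelled libraries. The groups were far apart, with the lowest PBS library 11.7-fold above the highest pIpC-labelled one. The log2 fold change was −3.80 ± 0.14 (SE, n = 3 per group), and it stayed between −3.91 and −3.70 when any 1 library was left out. Of the genes tested, 1.41% had a more negative value, a description only, since Adgre1 was chosen with its value known. Adgre4 (ENSMUSG00000032915, chr17:55749984-55853662, plus strand) encodes a macrophage and monocyte surface receptor. Its counts were 58.8, 70.9 and 55.5 in PBS and 316, 166 and 123 in pIpC-labelled libraries. All pIpC-labelled libraries were above all PBS libraries, but they spread 2.58-fold among themselves, the widest spread in that group among the 9 genes. The log2 fold change of Adgre4 was 1.58 ± 0.36, and 1.20 without pIpC replicate 1. Adgre5 (ENSMUSG00000002885, chr8:83723251-83741326, minus strand) encodes CD97, a leukocyte receptor that binds CD55. It had 2819.7, 2866 and 2659 in PBS and 3842, 3729 and 3921 in pIpC-labelled libraries. The difference was small and even across libraries, with a log2 fold change of 0.46 ± 0.11. The exons of Adgre5 share 895 bases, 23.8% of its exon length, with Ddx39 on the opposite strand. The libraries were made without strand information according to the labels, so reads from these bases cannot be told apart. Ddx39 itself was lower in pIpC-labelled libraries (2539, 2642 and 3747 against 2331, 1977 and 2096, log2 fold change −0.46, adjusted p = 0.0878), a call lost under 7 of 15 alternatives.

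Within the E group the genes thus went in opposite directions, including Adgre1 and Adgre4, which lie 1510 kb apart on chromosome 17. The surface marker F4/80 and the other E genes made up different parts of the family. On a scale of normalized count per exon kilobase, Adgre1 took 26.7% of the summed family level in PBS libraries and 2.85% in pIpC-labelled libraries, whereas Adgre5 took 14.9% and 30.4%.

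Of the latrophilin group, Adgrl1 (ENSMUSG00000013033, chr8:83900105-83941954, plus strand) encodes latrophilin 1, a receptor best known from neurons, where it binds the spider toxin α-latrotoxin and teneurins. Its counts were 333, 438 and 364 in PBS and 109.8, 118 and 125 in pIpC-labelled libraries. The groups did not overlap, and the log2 fold change was −1.67 ± 0.18. Adgrl1 shares 1107 exon bases, 12.9% of its exon length, with Gm10644 on the opposite strand, which had at most 14.7 in any library. Adgrl4 (ENSMUSG00000039167, chr3:151437887-151545086, plus strand) encodes ELTD1, known from vascular endothelium. It had 4644, 4520.4 and 4167 in PBS and 1193, 1155 and 1025 in pIpC-labelled libraries. Both latrophilin-group genes were therefore lower in every pIpC-labelled library than in every PBS library. The log2 fold change of Adgrl4 was −1.98 ± 0.12, a 3.95-fold difference of the means, and it remained between −2.03 and −1.92 with any 1 library left out.

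The G group held 4 of the 9 genes. Adgrg7 (ENSMUSG00000022755, chr16:56724609-56795855, minus strand) encodes GPR128, a receptor known from the intestine. It had 0, 2.0 and 0 in PBS and 816, 537 and 665 in pIpC-labelled libraries. As reads these were 2 over the PBS libraries and 2032 over the pIpC-labelled libraries, a ratio of 1020 with a 95% counting interval from 282 to 8430. The interval covers counting error only. On the log2(normalized count + 1) scale, which understates changes from near 0, the fold change was 8.84 ± 0.49, and 0.0266% of the genes tested had a higher value. This rank is a description only, since Adgrg7 was chosen with its value known. Adgrg6 (ENSMUSG00000039116, chr10:14402583-14545659, minus strand) encodes GPR126, which Schwann cells need for myelination. Its counts were 0.9, 0 and 2.3 in PBS and 28.9, 28.6 and 35.8 in pIpC-labelled libraries. This rests on 3 reads against 94 reads, a ratio of 31.5 with a 95% counting interval from 10.4 to 155. Every pIpC-labelled library was above every PBS library, and the log2 fold change of Adgrg6 was 4.13 ± 0.52.

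The other G genes, Adgrg1 and Adgrg3, lie 3.47 kb apart on chromosome 8. Adgrg1 (ENSMUSG00000031785, chr8:94974751-95014217, plus strand) had 2045, 1764 and 1993 in PBS and 2124, 2499 and 2143 in pIpC-labelled libraries. The groups were separated by 1.04-fold only, and the log2 fold change of 0.22 ± 0.13 did not pass. Adgrg3 (ENSMUSG00000060470, chr8:95017692-95045250, plus strand) encodes GPR97, known from neutrophils. It had 10009.6, 9787 and 7273 in PBS and 7166, 7846 and 7796 in pIpC-labelled libraries. Adgrg3 was the gene of the 9 whose groups overlapped, since PBS replicate 3 fell among the pIpC-labelled libraries, and its log2 fold change was −0.23 ± 0.16. Without PBS replicate 3, both Adgrg1 (0.24) and Adgrg3 (−0.38) passed the threshold, in opposite directions, so that 5 genes were past it as higher and 4 as lower. With all libraries, these adjacent genes had 0.22 and −0.23, against 4.13 for Adgrg6 and 8.84 for Adgrg7 of the same group. Adgrg6 and Adgrg7 passed the filter on low values through the pIpC-labelled libraries alone, so nothing is read from this contrast.

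Without PBS replicate 3, the log2 fold changes of the genes named as lower were −3.83 for Adgre1, −2.03 for Adgrl4 and −1.70 for Adgrl1. Those of the higher genes were 8.58 for Adgrg7, 4.55 for Adgrg6, 1.51 for Adgre4 and 0.43 for Adgre5. None of the 9 genes changed sign in any of the fits that were run. Quantile normalization, which moved the median of all genes to −0.12 and the share of higher genes among those called from 55.1% to 44.3%, gave 0.07 for Adgrg1 and 0.32 for Adgre5.

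**Figure D2:**
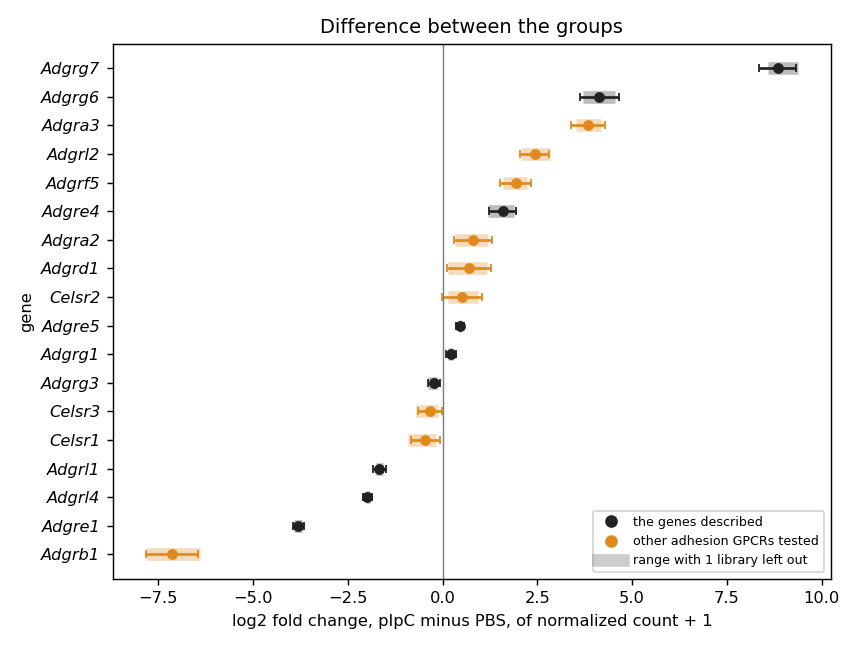
Log2 fold change (pIpC-labelled minus PBS, of normalized count + 1) with its standard error for the 9 genes described (black) and the 9 other adhesion GPCRs tested (orange); pale bars give the range with 1 library left out. Adgrg7 and Adgrb1 lie at the ends, and Adgrg1, Adgrg3 and the Celsr genes lie near 0.

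Levels were compared between genes per exon kilobase. In PBS libraries the order of mean levels ran from Adgre1 (1330 per kb) and Adgrg3 (1307 per kb), whose libraries overlapped, through Adgrl4 (969 per kb), Adgre5 (740 per kb) and Adgrg1 (357 per kb). Adgrl1 (44.1 per kb) and Adgre4 (17.7 per kb) followed, and Adgrg7 (0.25 per kb) and Adgrg6 (0.0853 per kb) came last and overlapped. In pIpC-labelled libraries Adgrg3 (1101 per kb) and Adgre5 (1020 per kb) led and overlapped, and Adgrg1 (416 per kb) was next. Adgrg7 (249 per kb) and Adgrl4 (245 per kb) then overlapped, as did Adgre1 (95.6 per kb) and Adgre4 (57.7 per kb). Adgrl1 (13.7 per kb) and Adgrg6 (2.54 per kb) closed the order. Adgrg7 thus moved from near the end of the order to a level that could not be separated from that of Adgrl4.

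The level summed over the 30 family genes was 4990 ± 414 per kb in PBS and 3357 ± 22.2 per kb in pIpC-labelled libraries (SD, n = 3 each). The 9 genes made up 95.6% ± 1.31 and 95.3% ± 0.289 of it. Adgre1, Adgrl4 and Adgrg3 together took 72.5%, 72.4% and 71.9% in the PBS libraries and 41.6%, 43.9% and 43.4% in the pIpC-labelled libraries. Adgrg3 by itself took 26.1% and 32.8%, Adgrl4 19.5% and 7.30%, Adgrg1 7.20% and 12.4%, and Adgrg7 0.0048% and 7.43%, on average over PBS and over pIpC-labelled libraries. The share of a gene can grow while its level does not, as for Adgrg3, because the family total was lower.

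**Figure D3:**
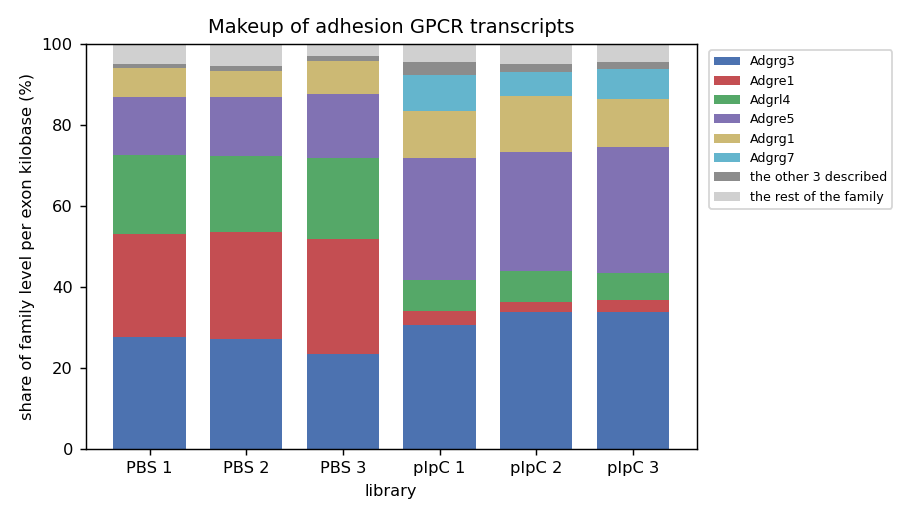
Share (%) of the summed adhesion GPCR level per exon kilobase taken by each gene in each library, stacked to 100%. Adgre1 (red) shrinks from 26.7% to 2.85% and Adgre5 (purple) widens from 14.9% to 30.4% on average, with Adgrg7 (light blue) visible in pIpC-labelled libraries only.

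Of the 20 other adhesion GPCR genes in the table, 9 passed the filter on low values, of which 3 were higher and 1 was lower at adjusted p under 0.1, with a median log2 fold change of 0.69. Over all 15020 genes tested, 25.0% were higher and 20.4% lower, so nothing about the family is read from this count. Adgra3 rose from 8.7, 6.1 and 3.4 to 116, 124 and 59.0 (log2 fold change 3.84 ± 0.44, adjusted p = 0.000733). Adgrl2, a latrophilin like Adgrl1, rose from 37.2, 70.9 and 23.8 to 229, 225 and 203 (2.43 ± 0.39, adjusted p = 0.00321). Adgrf5, a receptor of lung and vascular cells, rose from 12.1, 8.1 and 4.5 to 25.9, 40.9 and 30.9 (1.92 ± 0.42, adjusted p = 0.0118). The only lower gene was Adgrb1, which encodes BAI1, a receptor for phosphatidylserine on dying cells, at 446, 456 and 293 in PBS and 2.0, 6.1 and 0 in pIpC-labelled libraries (−7.14 ± 0.69, adjusted p = 0.000338). The latrophilins therefore did not share a direction, as Adgrl1 was lower and Adgrl2 higher.

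Adgra2 (0.79, adjusted p = 0.259), Adgrd1 (0.69, adjusted p = 0.388), Celsr2 (0.52, adjusted p = 0.475), Celsr3 (−0.33, adjusted p = 0.437) and Celsr1 (−0.46, adjusted p = 0.381) did not pass. The Celsr genes encode cadherin-containing receptors of planar cell polarity. Celsr1 was at 968 and 1104 in PBS replicates 1 and 2 but at 390.4 in PBS replicate 3, and Celsr3 at 1003 and 1115 but 496. Without that library both passed the threshold, at −0.92 and −0.69. Celsr2 turned to −0.23 under quantile normalization. Among genes under the filter, Adgrl3 had no read in PBS and 25 reads in pIpC-labelled libraries, at least 8.37-fold higher against a floor of 3 reads over the group, and Adgrf1 had none and 9, at least 3.01-fold higher. Adgrv1 and Adgrf3 lay the other way. Adgrv1 had 36 reads in PBS and 1 in pIpC-labelled libraries, a ratio of 35.9 with a 95% counting interval from 6.04 to 1455, and Adgrf3 was at 18.2, 14.2 and 18.1 in PBS and 3.0, 2.0 and 3.9 in pIpC-labelled libraries (51 against 9 reads).

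Genes for ligands and membrane partners of the family were counted next. Of 20 such genes, 10 were tested, and 7 were higher and 2 lower, with a median log2 fold change of 2.82. The shares over all genes tested were 25.0% higher and 20.4% lower. Cd55, the ligand of CD97, had the highest value: its counts were 0.9, 11.1 and 0 in PBS and 341, 562 and 545 in pIpC-labelled libraries (7.38 ± 0.88, adjusted p = 0.00085). Its receptor gene Adgre5 was 1.38-fold higher over the same libraries. Thy1, another CD97 partner, was also higher (4.66, adjusted p = 0.00152), and Itga5, which encodes an integrin subunit that binds CD97, was lower (−0.68, adjusted p = 0.00373), whereas Itgb1 did not pass (0.04, adjusted p = 0.856). Of the GPR56 partners, Tgm2 (3.19, adjusted p = 7.48e-05), Cd9 (3.44, adjusted p = 3.77e-05) and Cd81 (0.85, adjusted p = 0.0022) rose, while Adgrg1 itself had 0.22. Col3a1, the collagen ligand of GPR56, was under the filter, at 15.6, 10.1 and 11.3 in PBS and 5.0, 5.1 and 7.7 in pIpC-labelled libraries (38 against 18 reads), so that its groups did not overlap in the other direction. For GPR126, the ligand gene Prnp rose (2.92, adjusted p = 0.00124) and Col4a1 fell (−2.57, adjusted p = 0.000106), the lowest value of the list. The teneurin genes and the Flrt genes, other latrophilin partners, had at most 13.5 in any library.

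Of 24 genes for G proteins, their exchange factors, receptor kinases and arrestins, 22 were tested, and 10 were higher and 1 was lower, with a median of 0.40. Among all genes tested, 25.0% were higher and 20.4% lower. Gnaz, a Gi-family subunit, had the highest value (2.79 ± 0.34, adjusted p = 0.000914), at 2.3 to 3.0 in PBS and 21.0 to 26.1 in pIpC-labelled libraries. Gna12 and Gna13, subunits that several adhesion GPCRs couple to, had −0.03 (adjusted p = 0.874) and 0.31 (adjusted p = 0.119), and Gna13 passed without PBS replicate 3 (0.21). Among the exchange factors Arhgef12 rose (2.14, adjusted p = 0.00107). Ric8a, a chaperone of Gα subunits, was the lower gene (−0.39, adjusted p = 0.0912), and its call was lost under 7 of 15 alternatives. The count of 11 genes fell to 5 without pIpC replicate 2 and to 6 without pIpC replicate 3, fits in which fewer of all genes were called.

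The nearest protein-coding neighbours outside the chosen genes were compared to see how local each difference was. Next to Adgre1, Vav1, 30.7 kb away, did not pass (5270, 5422 and 5287 in PBS, 5411, 5649 and 5749.8 in pIpC-labelled libraries, 0.07, adjusted p = 0.624), and Vmn2r120 had no reads. Next to Adgrg7, Tfg, 7.2 kb away, did not pass (0.04, adjusted p = 0.87), and Tmem45a, 9.3 kb away, had no reads in any library. Adgre1 and Adgrg7 therefore each had an expressed neighbour without a detected difference on one side and a silent one on the other. Over all 14 neighbours, 11 were tested, and 5 were higher and 2 lower, with a median of 0.07, against 25.0% and 20.4% of all genes tested. The highest was Hivep2, 251.2 kb from Adgrg6 (5.08 ± 0.61, adjusted p = 0.000866), and the lowest was Ccdc102a, 56.7 kb from Adgrg1 (−3.00 ± 0.26, adjusted p = 0.00023). Some neighbours were thus far away, the farthest being Adgrl2, 2447.3 kb from Adgrl4. Adgrl2 was also counted among the other adhesion GPCRs. On the other side of Adgrg1 and Adgrg3, Drc7 rose (2.2 on the log2 scale, adjusted p = 0.00253), so that the neighbours on the 2 sides went in opposite directions while Adgrg1 and Adgrg3 did not pass.

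**Figure D4:**
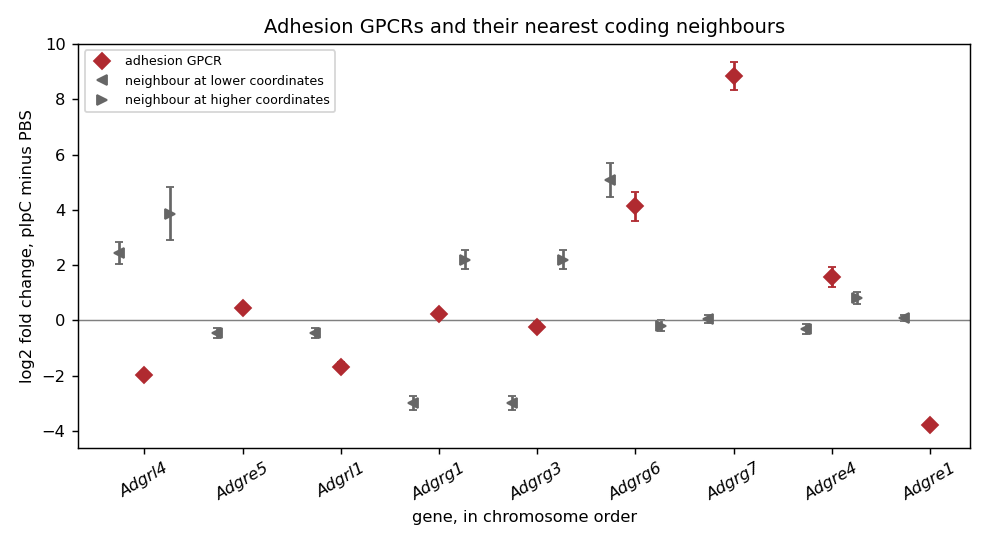
Log2 fold change (pIpC-labelled minus PBS) with its standard error for each of the 9 genes (red diamonds) and the tested nearest coding neighbour on each side (grey triangles). Adgre1 at −3.80 and Adgrg7 at 8.84 stand beside neighbours at 0.07 and 0.04.

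Genes that mark the cells in which these receptors are known were measured in the same fit, and their part in the differences of the 9 genes was not tested. The counts of called markers below stand against 25.0% higher and 20.4% lower over all genes tested. Beside Adgre1, 10 of 13 tested macrophage markers were higher and 2 lower (median 3.60), and their summed level was 8529 to 12430 in PBS and 8697 to 10720 in pIpC-labelled libraries. Most of that sum came from Vcam1, Csf1r and Cd68. Their means were 8421, 1619 and 746.5 in PBS and 4444, 1714 and 458.3 in pIpC-labelled libraries, and Cd68 was the second lower gene. Spic, a factor of red pulp and bone marrow macrophages, had the highest value (5.55, adjusted p = 0.00139) and Vcam1 the lowest (−0.90, adjusted p = 0.0197), while Csf1r did not pass (0.09, adjusted p = 0.639) and Marco had no read in PBS. Adgre1 was thus lower in libraries where most of the macrophage list was higher. Of 6 tested eosinophil markers, 3 were higher and 1 lower, with a sum of 8557 to 14340 in PBS and 4098 to 4498 in pIpC-labelled libraries. Most of that sum came from Siglecf and from Prg2, which did not pass (means 4786 in PBS and 2873 in pIpC-labelled libraries). Ccr3 was the highest (5.74, adjusted p = 0.00011), and Siglecf, a marker shared by eosinophils and some macrophages, was the lowest (−3.11, adjusted p = 1.68e-05), at 6391, 6089 and 5658 in PBS and 748, 655 and 693 in pIpC-labelled libraries. Ear6 had no read in PBS.

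Of 7 monocyte markers, 6 were higher, from Ly6c2 (0.40, adjusted p = 0.0899), whose call was lost under 9 of 15 alternatives, to F13a1 (4.88, adjusted p = 3.93e-05). The sum over the 7 ran from 135300 to 168600 in PBS and from 200500 to 223400 in pIpC-labelled libraries. Most of it was Chil3, the marker that did not pass (means 128100 in PBS and 170000 in pIpC-labelled libraries). Beside Adgrg3, all 10 neutrophil markers were higher, from Mmp9 (3.23, adjusted p = 3.89e-05) to Ly6g (8.23, adjusted p = 0.000309), and their sum was 15200 to 28860 in PBS and 1450000 to 1471000 in pIpC-labelled libraries. The log2 fold change of Adgrg3 over the same libraries was −0.23. Beside Adgrl4, all 7 endothelial markers were higher, from Plvap (1.13, adjusted p = 0.0247) to Tie1 (3.68, adjusted p = 5.97e-05), but their sum was low, at 127 to 161 in PBS and 666 to 796 in pIpC-labelled libraries. Adgrl4, at −1.98, had the opposite direction.

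Beside Adgrg1, 4 of 8 NK and T cell markers were tested and all 4 were higher, from Klrb1c (2.82, adjusted p = 0.0337), whose call was lost without pIpC replicate 1 and without pIpC replicate 3, to Ncr1 (4.79, adjusted p = 0.000341). The PBS means of these 4 ran from 0.91 (Ncr1) to 3.56 (Klrb1c), so they passed the filter through the pIpC-labelled libraries alone. Their higher direction was therefore set by the filter. The sum over the 8 markers was 12.1 to 13.6 in PBS and 151 to 171 in pIpC-labelled libraries, and Prf1 had no read in PBS. Of 10 tested stem and progenitor genes, 5 were higher and 4 lower, with a sum of 20000 to 23690 and 7632 to 8306. Hoxa10, a homeobox gene that MLL fusions keep active, was lowest (−6.39, adjusted p = 1.76e-05). Adgrg1 had no call over the same libraries. Erythroid markers (5 of 5 higher, from Klf1 at 4.17, adjusted p = 0.000553, to Hbb-bs at 8.52, adjusted p = 1.77e-05, sum 12.1 to 28.3 and 2142 to 3350) and B cell markers (4 of 4 higher, from Cd79a at 4.18, adjusted p = 0.000197, to Pax5 at 7.41, adjusted p = 5.44e-05, sum 18.2 to 35.1 and 621 to 1240) were also higher in the libraries labelled GFP+ bone marrow and pIpC.

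**Figure D5:**
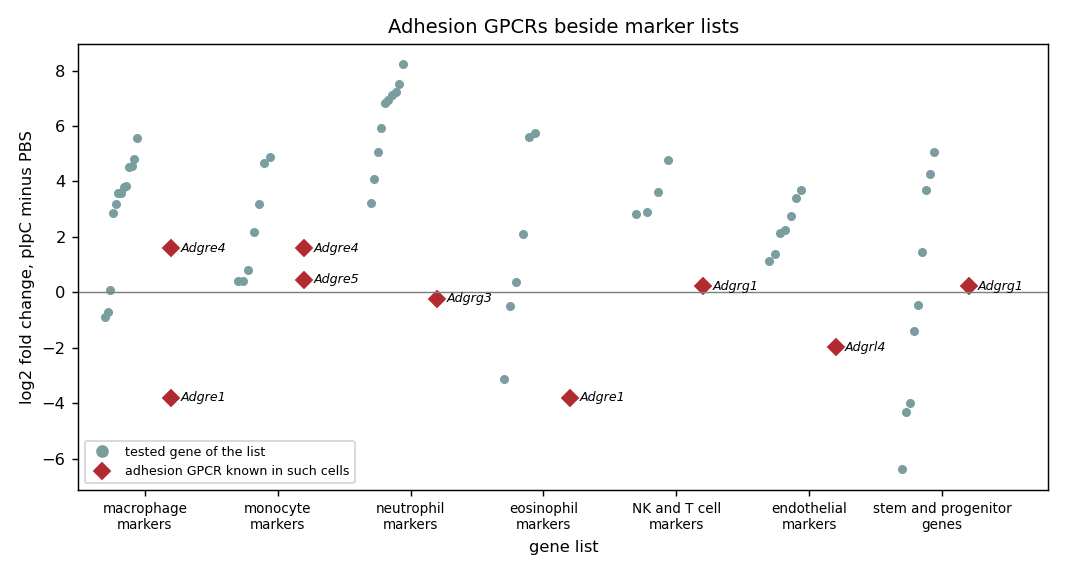
Log2 fold change (pIpC-labelled minus PBS) of tested genes of 7 marker lists (grey-green points) beside the adhesion GPCRs known from those cells (red diamonds). Every adhesion GPCR shown lies below the median of each list it stands beside. The adhesion GPCRs were chosen with these values known. List genes that were low in PBS libraries could pass the filter only by being high in pIpC-labelled ones. Nothing is therefore read from these positions. The medians were 3.60 (macrophage), 2.18 (monocyte), 6.89 (neutrophil), 1.24 (eosinophil), 3.27 (NK and T cell), 2.24 (endothelial) and 0.49 (stem and progenitor).

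The genes whose pattern over the 6 libraries was most like that of Adgre1 and of Adgrg7 were found by the root mean square difference of centred log2(normalized count + 1) values, a measure dominated here by the difference between the groups. For Adgre1 they were Slc22a3, an organic cation transporter (0.0615 on the log2 scale), Gm44000 (0.194) and Meis1, a homeobox partner of HOXA9 in MLL-rearranged leukemia (0.197). Slc22a3 had 3611, 3572 and 3527 in PBS and 314, 241 and 245 in pIpC-labelled libraries. Meis1 had 3890, 3839 and 3131 against 227, 239 and 206. For Adgrg7 they were Car1 (0.41) and Car2 (0.49), carbonic anhydrases of red cells and their precursors, and Arap2 (0.503). Car1 was at 0, 3.0 and 0 in PBS and at 996, 935 and 1451 in pIpC-labelled libraries. The likeness of Adgrg7 to its nearest genes was looser than that of Adgre1, which describes 6 libraries and says nothing of shared control.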

How the data were processed

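Poly(A)-selected RNA from 6 bone marrow samples was sequenced. The authors deposited 1 table of gene counts divided by a size factor for each library, treated here as a signal, and all values above 0 came out as whole reads within a tolerance of 0.1 read. No column was left out. The submitters' processing notes name HISAT2 2.2.1, featureCounts and GRCm38, whereas the study's methods describe another aligner and counter. The labels state GFP+ cells and unstranded libraries, the methods c-Kit+ cells and stranded libraries, so strand was treated as unknown.

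The main test was limma-trend (limma 3.58.1, R 4.3.3) of log2(normalized count + 1), 3 against 3 libraries, for the 15020 genes whose normalized count averaged 10 or more, at a Benjamini-Hochberg adjusted p under 0.1 over all genes tested. Levels per kilobase used merged exon lengths of the GRCm38 annotation. The alternatives were other pseudocounts (0.1 and 10), all genes above 0 or only those averaging 50 or more, quantile normalization, each library left out, a replicate block, an adjusted p under 0.05, and edgeR 4.0.16 and DESeq2 1.42.0 on recovered reads. The scripts were tested on simulated data. No pairing of libraries was used.

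The 10 genes and all lists (other family members, ligands, G proteins, neighbours and 9 cell type lists) were chosen with earlier results of these data known. Named genes were the chosen ones, the family genes tested, and the highest and lowest called gene of each list, the neighbours of Adgre1 and Adgrg7, and the 3 genes most like each of these. Some items that the rule names are not reported here. Other ligand, G protein, neighbour and marker genes were named after their values were seen.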

Additional observations from a re-analysis of the deposited data

How the results depend on the processing

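The 9 genes gave 134 comparisons with alternatives, of which 132 kept direction and side of the threshold and 2 gained a call (Adgrg1 and Adgrg3 without PBS replicate 3). The 55 other genes given with a fold change gave 814, of which 774 kept both, 25 lost and 3 gained a call, and 12 changed sign, all in genes that limma did not call. Under quantile normalization these were Celsr2 (−0.23), Itgb1 (−0.087), Tfg (−0.075) and Csf1r (−0.061). With 1 library left out, the values ran from −0.045 to 0.157 for Tfg (0.04 with all), from −0.099 to 0.114 for Itgb1 (0.04 with all) and from −0.108 to 0.022 for Gna12 (−0.03 with all). With no filter, 8 of 17 other adhesion GPCRs were called instead of 4 of 9, and with a mean of at least 50, 4 of 8 neighbours instead of 7 of 11, since other numbers of genes were tested. With 1 library left out, calls ranged from 4650 to 9783 over all genes (6808 with all libraries), from 4 to 6 for other adhesion GPCRs, from 9 to 9 for ligands, from 5 to 14 for G proteins and from 5 to 8 for neighbours. The low G protein counts were 5 without pIpC replicate 2 and 6 without pIpC replicate 3, and the cause was not tested. Over all genes, quantile normalization called 3244 higher and 4078 lower, against 3750 and 3058. edgeR called 6901 and DESeq2 7451 genes. Same-numbered PBS and pIpC-labelled libraries deviated from their group means with correlations of −0.117, 0.143 and 0.041, and not every library correlated best with its own number, so the numbers were not taken as pairs. A fit with the replicate block called 6095 of all genes, 4 other adhesion GPCRs, 9 ligands, 8 G proteins and 6 neighbours. Adgrg6 and Adgrg7 rest on 3 and 2 reads in PBS, so the size of their difference is loosely bounded.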
